A study of Mus musculus with 6 samples.

Results

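Focal adhesions are the sites where integrins, the receptors that hold a cell to its matrix, are coupled to the actin cytoskeleton. Talin binds the integrin tail and vinculin reinforces its link to actin, paxillin and zyxin recruit further proteins, focal adhesion kinase relays the signal, and integrin-linked kinase, PINCH and parvin form a stable complex on the β1 integrin tail. In the heart, activated fibroblasts build large adhesions of this kind while they contract and remodel the matrix. The 10 genes described here, *Tln1*, *Vcl*, *Flna*, *Tns1*, *Pxn*, *Zyx*, *Ptk2*, *Ilk*, *Lims1* and *Parva*, were chosen by name as adaptors and kinases of focal adhesions, by a rule that applies no measured value, and all 10 were found by symbol among the 28987 genes of the expression table.

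The libraries came from EGFP+ ventricular cells, sorted 4 weeks after the mice underwent transverse aortic constriction (TAC). TAC, done here at 8 to 10 weeks of age, ties the aorta partly shut and so loads the heart with pressure. The mice behind all 6 libraries carried a MerCreMer cDNA in the *Postn* locus and a Cre-dependent eGFP reporter in the *Rosa26* locus. All were given tamoxifen, by the labels as 2 injections of 100 mg/kg and as chow at 40 mg/kg, whereas the study's methods state other doses. Cre is thus active only in cells that express *Postn*, the gene for the matrix protein periostin, and the controls carry the same insertion. The mice behind the 3 libraries labelled Hsp47-deleted also carried *Hsp47* flox/flox alleles, and those behind the 3 control libraries did not. Per the study's methods the mice were male and of the C57BL/6 background. Whether hearts were pooled, and so the number of mice, is not given in the sources used here. The labels place control replicates 3 and 4 in the first sequencing run, and control replicate 2 together with every Hsp47-deleted replicate in the second, so that run and genotype are partly confounded.

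The values are log2(value + 1) of a normalised abundance whose unit is not named, and the number of reads behind them is unknown. Since the unit is unnamed, levels are compared between libraries for the same gene and not between genes. Undone to the linear scale, the libraries summed to between 690499 and 855404. Per-library values of a gene are given for control replicates 3, 4 and 2, in that order, and then for Hsp47-deleted replicates 1, 2 and 3. Groups were compared with limma over the 15109 genes with a mean linear value of at least 1, without a covariate, with Benjamini-Hochberg (BH) adjustment of the p-values over that set. The median log2 fold change of all genes tested was 0.35 and not 0, and it became -0.060 when each library was centred on its median. *Hsp47*, listed as *Serpinh1*, was at 6.28, 6.10 and 7.60 in control replicates 3, 4 and 2 and at 6.87, 6.67 and 6.66 in the libraries labelled Hsp47-deleted (a difference of 0.072, limma, BH-adjusted p = 0.947). The targeted transcript was therefore not lower in the pooled comparison, and it was lower by 0.87 on the log2 scale than in control replicate 2 (a difference of -0.87). These are gene-level RNA values, which do not single out the loxP-targeted exon and do not measure protein. The study reported efficient loss of Hsp47 protein, by Western blot, in EGFP+ cells sorted from hearts of this genotype. The fibroblast marker *Dcn*, which encodes the proteoglycan decorin, lay between 12.31 and 13.08 in all libraries. Of the leukocyte markers, *Ptprc* was listed at 0 in all 6 and *Cd68* was between 4.33 and 6.01.

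None of the 10 adaptor genes differed between the groups after adjustment over all genes tested (limma, smallest BH-adjusted p = 0.307, for *Tns1*), against 0.245% of all genes that passed. At an unadjusted limma p under 0.05, 1 of the 10 was higher in the libraries labelled Hsp47-deleted, *Tns1*, while 14.5% of all genes tested were. No member was lower at that threshold, against 0.755% of all genes. At 2 members, *Pxn* and *Ptk2*, all 3 libraries labelled Hsp47-deleted exceeded the highest control, against 18.3% of all genes, and at 1 member, *Lims1*, all 3 were under the lowest control, against 1.5%. The median log2 fold change of the 10 members was 0.26, below the 0.35 of all genes, and 8 of them had a positive and 2 a negative value. With the libraries centred on their medians the members' median was -0.16, and 4 of the 10 were positive. Against control replicate 2 alone, the control of the same run, it was 0.12, beside 0.29 for all genes.

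**Figure D1:**
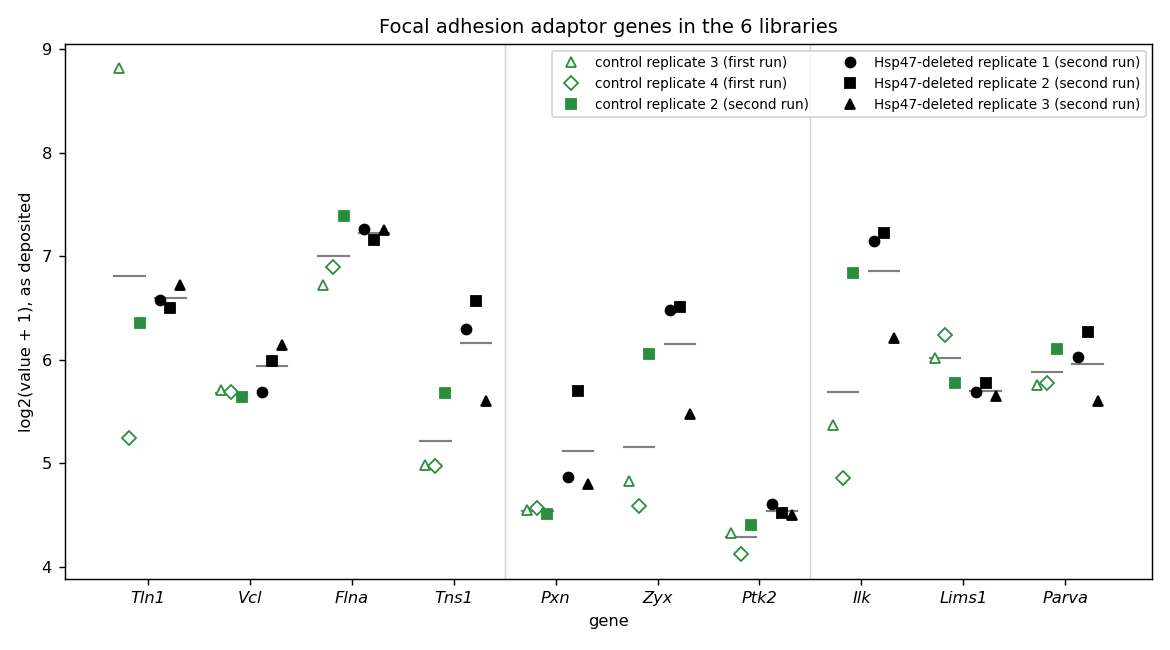
Deposited log2(value + 1) of each member gene (y axis) in the 6 libraries, with controls in green, libraries labelled Hsp47-deleted in black, open symbols for the first run, filled symbols for the second run, and grey bars for group means. *Tln1* ranges from 5.24 to 8.82 within the controls, and for *Ilk*, *Zyx* and *Tns1* control replicate 2 sits with the libraries labelled Hsp47-deleted rather than with the other controls.

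Talin 1 (*Tln1*, chr4:43531519-43562691, minus strand) is the adaptor whose head domain activates integrins. It was at 8.82, 5.24 and 6.35 in the controls, against 6.57, 6.50 and 6.73 under the Hsp47-deleted label. The controls thus enclosed all 3 libraries labelled Hsp47-deleted. The controls averaged 6.80 ± 1.83 (SD, n = 3) and the other group 6.60 ± 0.11 (SD, n = 3), and the log2 fold change of -0.20 had a 95% interval from -2.05 to 1.64. It became 0.80 without control replicate 3 (limma, BH-adjusted p = 0.783), whose *Tln1* value on the linear scale was 11.9 times that of control replicate 4 of the same run with the pseudocount of 1 included. Among the 3007 genes that reached a log2 value of 5 in either library, 38, or 1.26%, differed between them by at least this much. No transcript of another gene of 200 bases or more matched the longest *Tln1* transcript at 95% identity, and 3.67% of its exonic bases lie opposite *Creb3*, which was at 2.67 and 2.56 in those libraries.

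Vinculin (*Vcl*, chr14:20929398-21033676, plus strand) binds stretched talin and actin. Its values were 5.71, 5.69 and 5.64 in the controls, against 5.68, 5.99 and 6.14 under the Hsp47-deleted label. The 3 controls lay within 0.1 of each other in both runs, and Hsp47-deleted replicate 1 fell among them. The log2 fold change was 0.26 (95% interval from -0.37 to 0.89, limma, BH-adjusted p = 0.655), and 0.30 against control replicate 2. The last part of *Vcl* overlaps *Ap3m1* on the opposite strand over 25.5% of its exonic bases, and the library kit is not stated to keep strand, so reads of the shared part cannot be told apart. *Ap3m1* differed by 0.24.

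The *Vcl* promoter is shown because it was the only member promoter in which a CArG box was found, the site bound by serum response factor, a regulator of cytoskeletal genes. RefSeq promoter sequences (GRCm38.p6, a window around each annotated start) were held for 7 of the 10 members. A CArG box on either strand occurred in 1.63% of all 32851 promoters, the TEAD core GGAATG in 14.7% and the GC box GGGCGG in 35.7%. In the sequence, at chr14:20929148-20929447 on the plus strand, capitals mark the CArG box, then the TEAD core, then 4 GC boxes, of which the leading pair shares a base.

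Vcl: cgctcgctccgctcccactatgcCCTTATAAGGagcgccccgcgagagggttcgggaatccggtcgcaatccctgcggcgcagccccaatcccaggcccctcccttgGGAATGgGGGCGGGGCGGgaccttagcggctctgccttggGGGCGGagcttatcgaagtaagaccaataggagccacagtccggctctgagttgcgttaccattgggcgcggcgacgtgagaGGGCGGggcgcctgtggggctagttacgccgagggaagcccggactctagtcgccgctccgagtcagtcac

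Filamin A (*Flna*, chrX:74223461-74249820, minus strand) crosslinks actin and binds integrin tails. It was at 6.72, 6.90 and 7.39 in the controls, against 7.26, 7.16 and 7.26 under the Hsp47-deleted label. The 3 libraries labelled Hsp47-deleted lay close together, above the controls of the first run and below that of the second. The log2 fold change was 0.22 (95% interval from -0.46 to 0.90), and the difference from control replicate 2 was -0.17.

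Tensin 1 (*Tns1*, chr1:73910231-74124449, minus strand) joins integrin tails to actin in long fibrillar adhesions. Its values were 4.98, 4.97 and 5.68 in the controls, against 6.30, 6.57 and 5.60 under the Hsp47-deleted label. Hsp47-deleted replicate 3 lay just below control replicate 2, and the other libraries did not overlap. The controls averaged 5.21 ± 0.40 (SD, n = 3) and the other group 6.16 ± 0.50 (SD, n = 3), for a difference of 0.95 (95% interval from 0.099 to 1.80, limma, BH-adjusted p = 0.307). This is the only member whose unadjusted interval left out 0. It was 0.48 against control replicate 2, and 0.53 with the libraries centred on their medians.

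Of the scaffolds, paxillin (*Pxn*, chr5:115506676-115555987, plus strand) docks focal adhesion kinase and vinculin. It was at 4.55, 4.57 and 4.50 in the controls, against 4.87, 5.69 and 4.80 under the Hsp47-deleted label. The controls of both runs agreed within 0.1, and all 3 libraries labelled Hsp47-deleted lay above them, replicate 2 farthest. The controls averaged 4.54 ± 0.032 (SD, n = 3) and the other group 5.12 ± 0.50 (SD, n = 3), and the log2 fold change was 0.58 (95% interval from -0.18 to 1.34, limma, BH-adjusted p = 0.412). Against control replicate 2 it was 0.62, the largest difference of the 10 members in that comparison, and centring gave 0.17. Without Hsp47-deleted replicate 2 it was 0.29 (limma, BH-adjusted p = 0.810).

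Zyxin (*Zyx*, chr6:42349630-42360213, plus strand) is a LIM protein that moves to strained actin fibres. Its values were 4.82, 4.58 and 6.06 in the controls, against 6.48, 6.51 and 5.47 under the Hsp47-deleted label. Control replicate 2 lay above Hsp47-deleted replicate 3, so the groups overlapped, and the 2 controls of the first run were the lowest libraries. The log2 fold change was 1.00 (95% interval from -0.12 to 2.11, limma, BH-adjusted p = 0.357), and the difference from control replicate 2 was 0.094.

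Focal adhesion kinase (*Ptk2*, chr15:73205102-73423280, minus strand) is the tyrosine kinase that signals from new adhesions. It had the narrowest range of the members over the 6 libraries, at 4.33, 4.12 and 4.40 in the controls, against 4.60, 4.52 and 4.50 under the Hsp47-deleted label. All 3 libraries labelled Hsp47-deleted lay above the controls by a small margin. The log2 fold change was 0.26 (95% interval from -0.36 to 0.88, limma, BH-adjusted p = 0.655), and it was -0.16 after centring.

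Integrin-linked kinase (*Ilk*, chr7:105736592-105742925, plus strand) is the pseudokinase at the core of the complex with PINCH and parvin. It was at 5.37, 4.85 and 6.84 in the controls, against 7.15, 7.22 and 6.21 under the Hsp47-deleted label. As for *Zyx*, control replicate 2 lay above Hsp47-deleted replicate 3 and far above the other controls. The controls averaged 5.69 ± 1.03 (SD, n = 3) and the other group 6.86 ± 0.56 (SD, n = 3), and the log2 fold change of 1.17 was the highest of the members (95% interval from -0.094 to 2.44, limma, BH-adjusted p = 0.345). The difference from control replicate 2 was 0.023. Exons of *Taf10* lie opposite 76.7% of the exonic bases of *Ilk* in GENCODE M21, and *Taf10* differed by -0.26, so that reads of the shared part cannot be assigned without strand.

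PINCH-1 (*Lims1*, chr10:58323466-58424691, plus strand) is the LIM-domain partner of ILK. It was at 6.02, 6.24 and 5.77 in the controls, against 5.68, 5.77 and 5.65 under the Hsp47-deleted label. The groups did not overlap, but control replicate 2 and Hsp47-deleted replicate 2 were both at 53.6 on the linear scale. The log2 fold change was -0.31 (95% interval from -0.94 to 0.32, limma, BH-adjusted p = 0.587), and the difference from control replicate 2 was -0.071. Centring moved it to -0.73, at an unadjusted limma p under 0.05 and an adjusted p of 0.590.

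α-Parvin (*Parva*, chr7:112427505-112591692, plus strand), which ties the complex to actin, was at 5.76, 5.77 and 6.10 in the controls, against 6.03, 6.26 and 5.60 under the Hsp47-deleted label. Both the lowest and the highest library carried the Hsp47-deleted label. A log2 fold change of 0.085 was estimated (95% interval from -0.61 to 0.78), and it was -0.33 after centring.

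**Figure D2:**
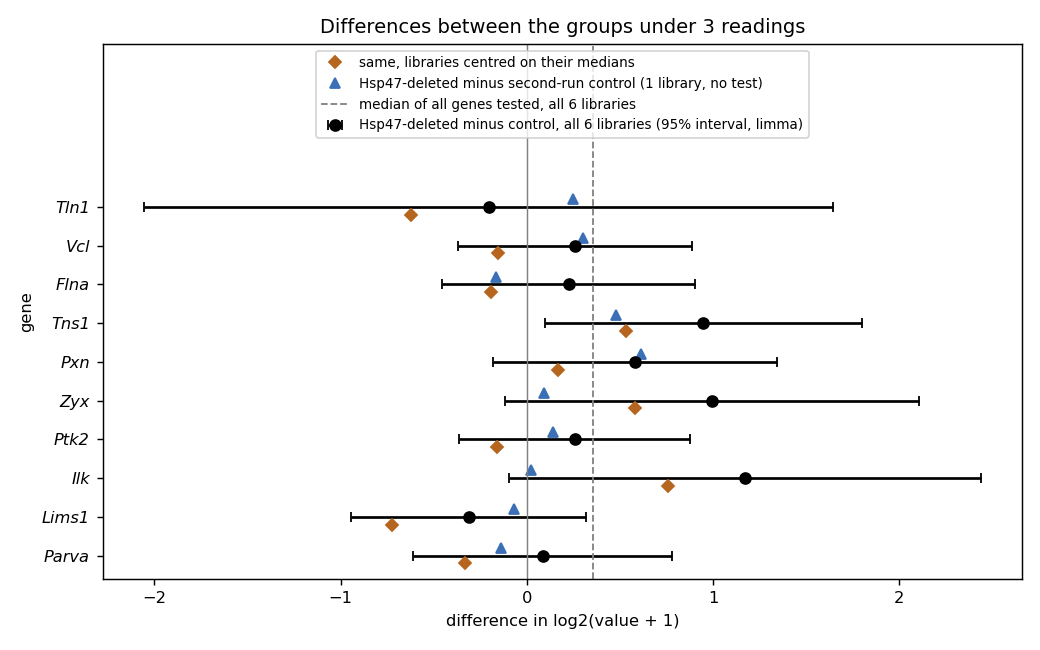
Difference in log2(value + 1) for each member (x axis), as the limma estimate over all 6 libraries with its 95% interval (black), the same after centring (brown) and against control replicate 2 alone (blue, without a test), with the median of all genes tested as a dashed line. *Ilk* falls from 1.17 to 0.023 and *Zyx* from 1.00 to 0.094 when set against control replicate 2, whereas *Pxn* is at 0.58 and 0.62.

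*Ilk*, *Zyx* and *Tns1* differed more within the controls than between the control and the libraries labelled Hsp47-deleted of the same run. Control replicate 2 exceeded the mean of control replicates 3 and 4 by 1.72 for *Ilk*, 1.35 for *Zyx* and 0.70 for *Tns1*, against differences of 0.023, 0.094 and 0.48 from control replicate 2 to the libraries labelled Hsp47-deleted. For all genes tested the median difference between the controls was 0.11. The same 3 genes were lower in Hsp47-deleted replicate 3 than in the mean of replicates 1 and 2, with differences of -0.97, -1.02 and -0.83. Without control replicate 2, where run and label coincide, *Ilk* (a value of 1.75, limma, BH-adjusted p = 0.0239) and *Zyx* (1.45, limma, BH-adjusted p = 0.0404) passed, together with 2768 genes in all. With sequencing run as a covariate none of the 10 did (limma, smallest BH-adjusted p = 0.745), and none passed an unadjusted p under 0.05. The estimates of that fit are the differences from control replicate 2 given above, so they rest on that control alone.

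Base composition moved with these differences. The coding transcripts of the members ranged from 45.0% GC in *Lims1* and 48.5% in *Ptk2* to 60.0% in *Pxn* and 63.1% in *Zyx*, with *Ilk* at 55.3% and *Tns1* at 58.2%. Over 14783 tested genes with a value, which are not independent replicates, the difference between control replicate 2 and the controls of the first run had a Spearman rho of 0.32 with GC content. Its median was -0.26 in the fifth of genes with the lowest GC content and 0.74 in the fifth with the highest. The pooled difference between the groups had a rho of 0.40, and that against control replicate 2 a rho of 0.0011. Within the second run, the difference between Hsp47-deleted replicate 3 and the mean of replicates 1 and 2 had a rho of -0.15. The median of that difference was 0.023 in the fifth with the lowest GC content and -0.30 in the fifth with the highest. With GC and length trends taken out, a setting added once the data had been seen, the log2 fold changes were 0.57 for *Ilk*, 0.071 for *Zyx* and 0.24 for *Tns1*, and 3 of the 10 members were positive. The members did not all follow their GC content. *Pxn* differed by -0.052 between control replicate 2 and the other controls, and *Tln1*, at 57.2% GC, by -0.68. For *Tln1*, control replicates 3 and 4 were themselves 3.57 apart.

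**Figure D3:**
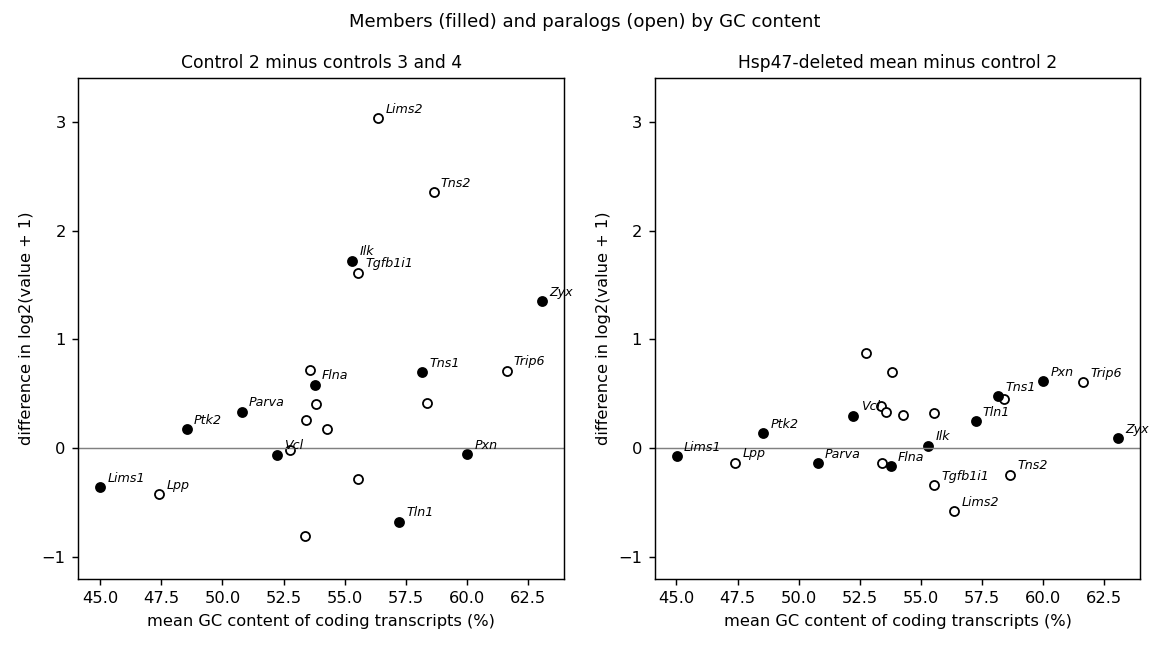
Difference in log2(value + 1) (y axis) against the mean GC content of the coding transcripts (x axis, %) for the 10 members (filled) and their 13 tested paralogs (open, some named), for control replicate 2 against controls 3 and 4 (left) and for the mean of the libraries labelled Hsp47-deleted against control replicate 2 (right). On the left *Ilk* stands at 1.72 and *Lims2* at 3.03, and on the right at 0.023 and -0.58.

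Zyxin and ILK are shown by their promoters because these genes had the largest excess of control replicate 2 over the other controls among the members. Each comes from RefSeq on GRCm38.p6 and the plus strand, *Zyx* at chr6:42349578-42349877 and *Ilk* at chr7:105736475-105736774, the latter being that of 2 listed *Ilk* promoters which holds the motif. Capitals mark the GC box GGGCGG, present 2 times in the *Zyx* and 3 times in the *Ilk* sequence. Of the 10 promoters listed for 7 members, 6 held it, against 35.7% of all promoters, and those 6 belong to *Vcl*, *Flna*, *Tns1*, *Lims1*, *Zyx* and *Ilk*.

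Zyx: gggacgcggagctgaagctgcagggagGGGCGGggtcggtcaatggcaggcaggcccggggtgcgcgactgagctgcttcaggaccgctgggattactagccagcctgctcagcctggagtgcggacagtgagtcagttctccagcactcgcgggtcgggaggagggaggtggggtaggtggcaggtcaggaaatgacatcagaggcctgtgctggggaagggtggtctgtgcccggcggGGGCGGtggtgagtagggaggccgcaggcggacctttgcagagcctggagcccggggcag
Ilk: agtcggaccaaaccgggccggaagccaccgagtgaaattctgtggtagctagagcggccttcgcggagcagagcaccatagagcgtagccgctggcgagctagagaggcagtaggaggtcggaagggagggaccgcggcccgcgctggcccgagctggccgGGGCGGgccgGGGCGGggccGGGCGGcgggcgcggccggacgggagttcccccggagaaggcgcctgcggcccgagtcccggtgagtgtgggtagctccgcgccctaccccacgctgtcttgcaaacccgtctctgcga

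Ratios of 2 genes within a library, taken as differences of the deposited log2 values, depend little on how that library was scaled, and 11 of them were compared. In the complex of ILK, PINCH and parvin, whose proteins bind each other in equal numbers, the log2 ratio of *Ilk* to *Lims1* was -0.65 and -1.39 in control replicates 3 and 4 and 1.06 in control replicate 2. It was 1.46, 1.45 and 0.56 in Hsp47-deleted replicates 1, 2 and 3. The 4 libraries of the second run thus had more *Ilk* relative to *Lims1* than both libraries of the first. The controls averaged -0.32 ± 1.26 (SD, n = 3) and the other group 1.16 ± 0.51 (SD, n = 3), and the difference of 1.48 had an exact two-sided permutation p of 0.2, where 0.1 is the smallest that 3 against 3 allow, and a BH-adjusted p of 0.44 over the 11 ratios. Against control replicate 2 it was 0.094. The ratio of *Ilk* to *Parva* behaved alike, at -0.39, -0.92 and 0.73 in control replicates 3, 4 and 2 and between 0.61 and 1.12 in the libraries labelled Hsp47-deleted. *Lims1* to *Parva* varied less, between -0.33 and 0.47 for controls, against -0.49 to 0.050 for those labelled Hsp47-deleted.

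The paralogs of the members encode proteins with related functions. The ratio of *Lims1* to *Lims2*, the gene for PINCH-2, ranged most widely. It was 3.85 and 4.74 in control replicates 3 and 4, 0.90 in control replicate 2, 0.65 and 0.77 in Hsp47-deleted replicates 1 and 2, and 2.81 in Hsp47-deleted replicate 3. This followed *Lims2*, which was at 2.17, 1.50 and 4.87 in control replicates 3, 4 and 2 and at 5.03, 5.00 and 2.84 in the libraries labelled Hsp47-deleted. The difference between the groups was -1.76 in the pooled comparison (exact two-sided permutation p = 0.2) and 0.50 against control replicate 2. For *Tns1* to *Tns3* (0.079), *Zyx* to *Trip6* (-0.084), *Ptk2* to *Ptk2b* (-0.17), *Parva* to *Parvb* (-0.048), *Pxn* to *Tgfb1i1* (-0.16) and *Tln1* to *Tln2* (-1.02) the differences came with exact two-sided permutation p-values from 0.6 to 1 and BH-adjusted values from 0.963 to 1.

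**Figure D4:**
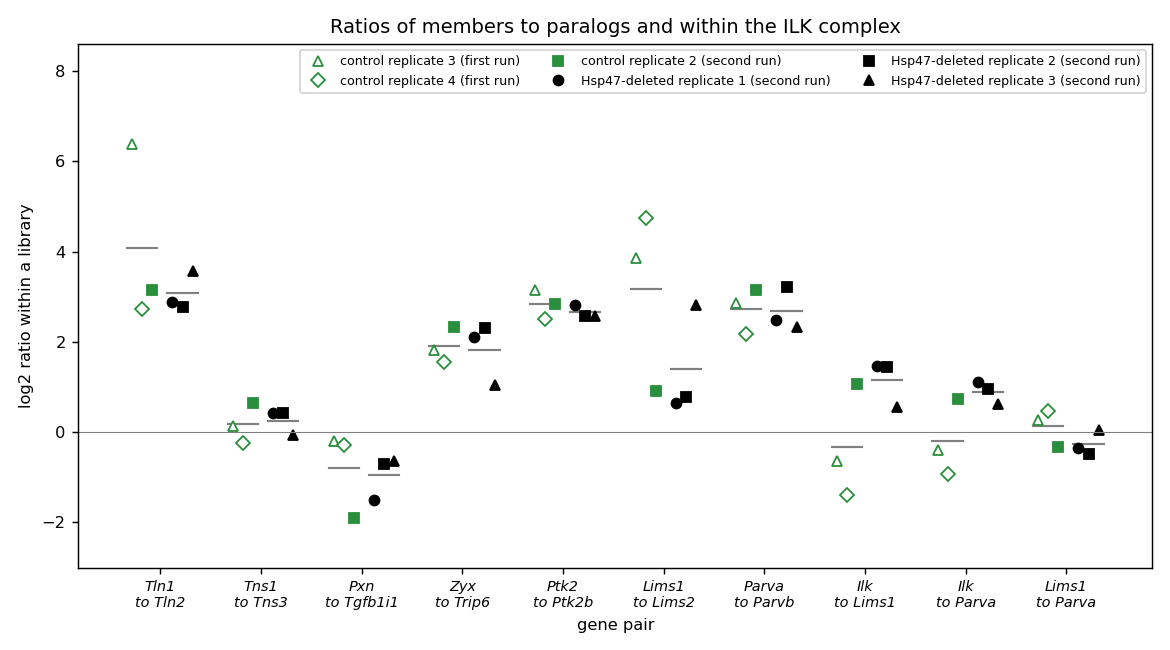
Log2 ratio of member to partner within each library (y axis) for 7 pairs of paralogs and 3 pairs of the ILK complex (x axis), with symbols as in the plot of member values and grey bars for group means. *Ilk* to *Lims1* lies below 0 only in the 2 controls of the first run.

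Among the 13 paralogs that passed the filter (*Lpxn* did not), none passed after adjustment (limma, smallest BH-adjusted p = 0.281) and 4 were higher at an unadjusted p under 0.05, among them *Trip6*, *Tns3* and *Flnc*, where 14.5% of all genes were. Their median log2 fold change was 0.74, against 0.26 for the members and 0.35 for all genes. Set against control replicate 2 alone, the paralogs' median was 0.32, beside 0.29 for all genes. *Trip6*, a zyxin relative, was at 3.00, 3.03 and 3.73 in control replicates 3, 4 and 2 and at 4.37, 4.21 and 4.42 in the libraries labelled Hsp47-deleted, without overlap (log2 fold change 1.08, limma, BH-adjusted p = 0.281). *Tns3* was at 4.85, 5.22 and 5.02 in the same controls and at 5.87, 6.15 and 5.67 in the libraries labelled Hsp47-deleted (0.87, limma, BH-adjusted p = 0.283), and its difference from control replicate 2 was 0.88. *Flnc* had a value of 0.73, *Tln2* of 0.81, *Tns2* of 1.32, *Tgfb1i1* of 0.74 and *Lims2* of 1.45, of which *Tns2*, *Tgfb1i1* and *Lims2* were lower than control replicate 2 by values of -0.24, -0.34 and -0.58. *Lpp* (-0.41) and *Tns4* (-0.14) had negative log2 fold changes, and *Ptk2b* (0.43), *Parvb* (0.13) and *Parvg* (0.041) small positive ones.

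The other genes of the pathway were taken from 4 further lists. None of their members passed a BH-adjusted limma p under 0.05, and 13 were higher and 0 lower at an unadjusted p under 0.05. Over all genes tested those shares were 14.5% and 0.755%, and the counts given for each list are to be read against them, the total of 13 lying near the first. Of 23 tested integrin activators, linkers and actin binders, 4 were higher at that threshold, and the median log2 fold change was 0.57. *Actn4*, which encodes the actin crosslinker α-actinin 4, averaged 6.27 ± 0.082 (SD, n = 3) over the controls, against 7.39 ± 0.32 (SD, n = 3) over the libraries labelled Hsp47-deleted (a difference of 1.12, limma, BH-adjusted p = 0.251). *Palld*, the gene of the actin scaffold palladin, had a value of 1.11, and both kept it against control replicate 2 (1.06 and 1.04). *Nexn* (-0.33) and *Enah* (-0.11) had the smallest p among those with negative values.

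Of 23 tested signalling proteins, 3 were higher at the unadjusted threshold, with a median of 0.34. *Git1*, a paxillin-binding regulator of small GTPases, had a log2 fold change of 1.11 and *Bcar1*, the docking protein p130Cas, of 1.02, both without overlap. From control replicate 2 the differences were 0.48 for *Git1* and 0.34 for *Bcar1*. That control itself exceeded the mean of control replicates 3 and 4 by 0.93 and 1.02. *Rhoa*, the GTPase that drives stress fibres, averaged 8.11 ± 0.067 (SD, n = 3) over the controls, against 7.89 ± 0.15 (SD, n = 3) over the libraries labelled Hsp47-deleted, without overlap (-0.23, limma, BH-adjusted p = 0.699), and *Crk* had a value of -0.35. Of 19 integrin subunits, 2 were higher, with a median of 0.31. *Itga11*, the α subunit of a collagen receptor, had the smallest p of these adhesion and actomyosin genes (a difference of 1.73, limma, BH-adjusted p = 0.0727) and was 1.49 above control replicate 2, while *Itga7* had a value of 0.81, *Itga4* of -0.31 and *Itga10* of -0.038. *Itga7* lay near the filter value of 1, at 0.86, 0.67 and 1.05 on the linear scale in control replicates 3, 4 and 2. In Hsp47-deleted replicates 1, 2 and 3 it was at 2.28, 2.20 and 2.23.

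Of 22 tested actomyosin genes, 4 were higher at the unadjusted threshold, with a median of 0.51, which was 0.10 against control replicate 2. *Tagln2*, a transgelin that binds actin, had a log2 fold change of 1.54 and *Myl12b*, a myosin light chain gene, of 1.64, against 0.55 and 0.48 from control replicate 2. The 5 lists together held 100 tested genes, of which 79 had a positive log2 fold change and 57 after centring, against 11250 and 6910 of the 15109 genes tested.

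**Figure D5:**
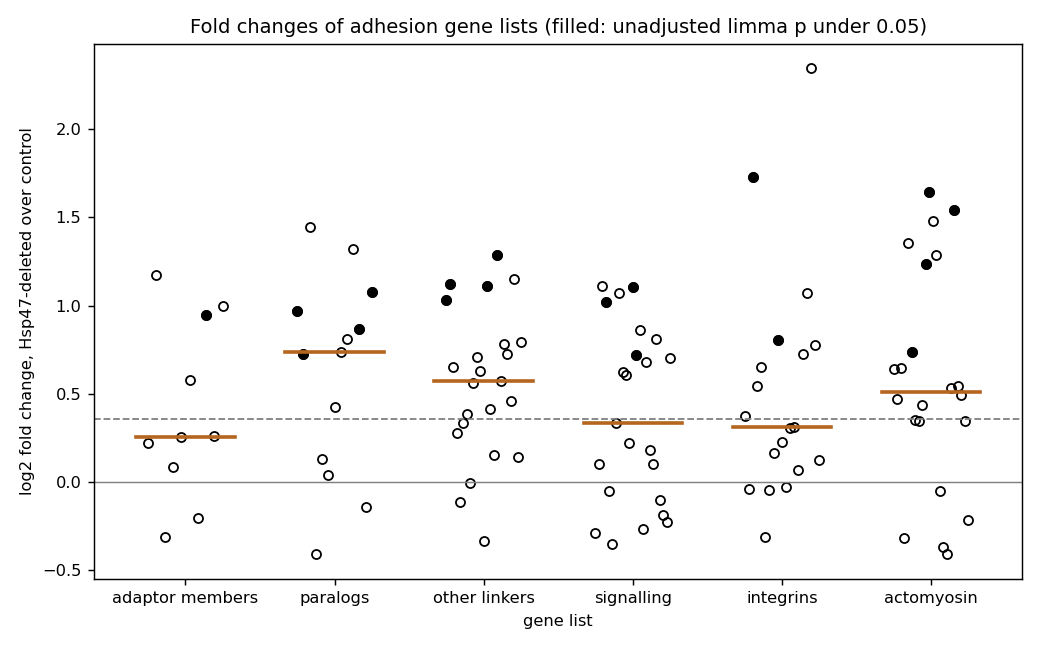
Log2 fold change of each tested gene (y axis) for the members and 5 lists of adhesion and actomyosin genes (x axis), filled where the unadjusted limma p was under 0.05, with the median of each list in brown and that of all genes as a dashed line. The median of the members (0.26) lies below the dashed line at 0.35, and that of the paralogs (0.74) above it. Set against control replicate 2 alone, which is not drawn, these medians were 0.12 and 0.32, beside 0.29 for all genes.

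The summed markers of cardiomyocytes, of endothelial cells and of fibroblasts were lower in both controls of the first run than in control replicate 2. *Ilk* and *Zyx* were lower there too, but single markers were not all so. *Myh7*, *Actn2*, *Vwf* and *Ddr2* were higher in both, at 1.72 and 2.12 against 1.52 for *Myh7*. The 10 cardiomyocyte markers summed, on the linear scale, to 101 and 53.6 in control replicates 3 and 4, to 280.3 in control replicate 2 and to between 174 and 265 in the libraries labelled Hsp47-deleted. The 10 endothelial markers summed to between 125 and 346 in controls, highest in control replicate 2, and to between 246 and 389 in the libraries labelled Hsp47-deleted. The 10 markers of leukocytes and platelets summed to between 37.7 and 86.1 and between 85.1 and 97.8, and the 8 mural cell markers to between 172 and 293 and between 122 and 189. Most of each mural sum was *Rgs5*, at 253 of 293 in control replicate 3. Of the 8 mural markers, 3 had a positive log2 fold change, *Mcam* among them, and 5 a negative one. The 10 fibroblast markers summed to between 8075 and 11013 in controls and between 12617 and 14380 in the libraries labelled Hsp47-deleted. Most of each fibroblast sum was *Dcn*, at 5392 of 8379 in control replicate 3. *Postn* added 57.3, 56.9 and 68.5 to the sums of control replicates 3, 4 and 2, and 1188, 1451 and 1317 to those of Hsp47-deleted replicates 1, 2 and 3. Of the 10, 8 had a positive log2 fold change and 2, *Lum* and *Ddr2*, a negative one. Of the markers tested, 2 of 9 for cardiomyocytes, 3 of 10 for endothelial cells, 0 of 8 for leukocytes or platelets, 1 of 8 for mural cells and 2 of 10 for fibroblasts were higher at an unadjusted limma p under 0.05, against 14.5% of all genes, and 1 mural marker was lower. *Postn*, the locus that drives Cre and a fibroblast marker, was the only gene of these lists past the adjusted threshold, at 5.87, 5.86 and 6.12 in the controls and 10.22, 10.50 and 10.36 in the other group (a difference of 4.41, limma, BH-adjusted p = 0.00337). The part of other cells in the member values was not tested, and in bulk samples fewer cells of a type and less RNA per cell cannot be told apart.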

How the data were processed

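RNA from 3 control and 3 Hsp47-deleted libraries was amplified, tagmented and sequenced by the authors, who deposited 1 table of log2(value + 1) per gene and library. The submitters' processing notes name kallisto and the build mm10, without versions, and the study names AltAnalyze. The authors' group means, folds and p-values in the same table were not used. The linear unit is not named and the values are not counts, so no count model was run. All 6 library columns were matched to sample titles.

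Values were used as deposited, with their pseudocount of 1. Genes with a mean linear value of at least 1 were kept (15109 of 28987). limma 3.58.1 in R 4.3.3 (lmFit, eBayes with trend) was fitted without a covariate and checked on simulated data. Replicates were labelled as separate samples, and p-values measure the spread between them. Ratios were compared by exact permutation (SciPy 1.17.1), for which 0.10 is the smallest two-sided p. Positions, exons, GC content and lengths came from GENCODE M21 (GRCm38, the assembly of mm10), and near-identical transcripts from minimap2 2.31-r1302. *Tns2* and *Adgre1* were matched by gene ID. The text names all members, their paralogs, *Serpinh1*, the 2 genes with the smallest p in each direction in every other adhesion or actomyosin list, and genes overlapping a member. Some genes that this rule names are not reported here. The members were taken by name and not by value, but they and the lists were chosen with earlier results of these data known. The alternatives were other filters, pseudocounts and scalings, run as a covariate, a replicate block, limma settings, leaving out each library and, added later, removal of GC and length trends (lowess).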

Additional observations from a re-analysis of the deposited data

How the results depend on the processing

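No member passed a BH-adjusted limma p under 0.05 in any alternative but that without control replicate 2. Leaving out 1 library at a time gave 0 to 2 members called, 8 to 2768 of all genes (main value 37) and 0 to 21 genes of the wider lists, with each highest count without control replicate 2. All genes called were 13 without a filter on low values, 16 with a pseudocount of 0.1, 18 with libraries centred on the median, 17 after quantile normalization, 17 after rescaling without mt- and Gm genes and 16 after removal of GC and length trends, which was chosen after seeing the data. The members' median became -0.16 (centred), -0.22 (rescaled) and -0.17 (GC and length), and that of the wider lists, 0.54, became 0.12 (centred), 0.11 (quantile), 0.079 (rescaled) and 0.032 (GC and length).

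Log2 fold changes that turned sign were *Vcl* -0.16, *Ptk2* -0.16, *Parva* -0.33 and *Flna* -0.19 when centred, -0.072, -0.12, -0.24 and -0.15 for the same genes after quantile normalization, and -0.22, -0.21, -0.40 and -0.26 when rescaled. Removal of GC and length trends gave -0.12 for *Vcl*, -0.23 for *Pxn*, -0.011 for *Ptk2*, -0.23 for *Parva* and -0.26 for *Flna*. Sequencing run as a covariate gave 0.25 for *Tln1*, -0.14 for *Parva* and -0.17 for *Flna*, the same values as against control replicate 2 alone. Leaving out a library moved *Tln1* between -0.98 and 0.80 and *Parva* between -0.066 and 0.27.

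Ratios without overlap between the groups numbered 1 to 6 when a library was left out, 6 without control replicate 2, 5 without Hsp47-deleted replicate 3 and 2 without control replicate 4. The ratio differences ranged from -1.70 to 0.14 for *Tln1* to *Tln2*, -0.71 to 0.14 for *Pxn* to *Tgfb1i1*, -0.32 to 0.16 for *Parva* to *Parvb*, -0.13 to 0.32 for *Tns1* to *Tns3* and -0.32 to 0.30 for *Zyx* to *Trip6*. A pseudocount of 5 gave 0.086 for *Zyx* to *Trip6* and 0.029 for *Ptk2* to *Ptk2b*.

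With a replicate block, which only numbers 2 and 3 share between the groups, 0 genes passed (limma), no member had an unadjusted p under 0.05, and *Parva* was at -0.00052. Deviations of same-numbered libraries correlated at 0.16 and 0.23, and those of differently numbered libraries at between -0.42 and 0.38. Same-numbered libraries, with only 2 shared numbers, were not taken as pairs. The causes of these changes were not tested. Depth is unknown, and 3 libraries a group limit the precision.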
